A study of Rattus norvegicus with 18 samples.

Results

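Class I major histocompatibility complex (MHC) peptide loading and the immunoproteasome were followed in rat cerebral cortex after subarachnoid hemorrhage (SAH), as 10 genes taken by symbol from a table of 30735 genes: B2m, Tap1, Tap2, Tapbp, Psmb8, Psmb9, Psmb10, Psme1, Psme2 and Nlrc5. All 10 passed the filter on low counts and were among the 18444 genes tested. RNA of bulk cortex was sequenced from adult Sprague Dawley rats in 3 groups of 6 libraries. In the SAH 1d and SAH 7d groups an artery at the base of the brain was perforated with a filament passed up the internal carotid artery, and cortex was taken 1 or 7 days later. Sham rats had the same anesthesia, neck surgery and filament without the perforation. The time from surgery to collection is not given for sham. Effects of the operation that change with time therefore cannot be told apart from those of SAH. The labels speak of cortex from both hemispheres and the methods of the operated side, neither gives the sex of the rats, and neither ties each library to 1 rat, so that p-values measure the spread between libraries. The question asked of these genes was how far each level differed from sham at each time, and whether the times differed.

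Class I molecules show peptides from the inside of nearly every nucleated cell to CD8 T cells. Proteasomes cut cytosolic proteins into peptides, a transporter carries the peptides into the endoplasmic reticulum, and a loading complex places them on a heavy chain paired with beta-2-microglobulin. Interferons exchange the standard catalytic subunits of the proteasome for inducible ones, and in healthy brain, where neurons show little class I on their surface, the pathway is known to be kept low and to rise in glia and endothelium during inflammation.

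Total counts ran from 27270026 to 38271014 per library. Libraries that stood apart were SAH 7d-5, with a summed level of monocyte and macrophage markers of 8776 CPM (a count scaled by the size and composition of its library) against 285 in the next SAH 7d library, and SAH 1d-3, at 634 against 136 in the next SAH 1d library. SAH 7d-5 also had the lowest summed neuron markers of the 18 libraries, 2159 CPM against at least 4338 CPM in all others, and its T and natural killer cell markers summed to 384 CPM against at most 38.4 in the rest of its group. That sum was mostly Cd8a (243 CPM), Cd4 (71.4 CPM) and Cd8b (60.9 CPM), while Cd3e, the T cell receptor component, was at 2.0 CPM and Lck at 2.78 CPM, against up to 0.566 and 2.68 CPM in sham. All 6 neuron markers were detected, as the cortex label would have it, and 5 of the 6 fell at SAH 1d, against 10.5% of all tested genes. Among the sham libraries, sham-2 and sham-4 had the highest mean log2 CPM of 10 antiviral interferon response genes, 4.88 and 4.93, against 0.89 to 2.55 in the other 4. Summed choroid plexus markers were 1070 CPM in SAH 1d-6 and 740 CPM in the next SAH 1d library, against at most 67.5 CPM in sham. In bulk tissue, a change in the number of cells of a type cannot be told apart from a change in RNA per cell.

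Promoter sequences are shown first because 7 of the 9 members with a promoter in the RefSeq table for the rat build GRCr8 share 1 motif. The motif searched was the core of the interferon-stimulated response element, GAAA, any 2 bases and GAAA on either strand, in the 300 bases from 250 before to 50 after the transcription start. It was found in 77.8% of the members' promoters and in 3.77% of 27457 promoters of that length. In each window below the capitals mark the motif, read 5′ to 3′ on the strand of the gene.
B2m, chr3:129549155-129549214, plus strand: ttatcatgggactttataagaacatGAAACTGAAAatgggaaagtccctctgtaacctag
Tap1, chr20:4668630-4668689, minus strand: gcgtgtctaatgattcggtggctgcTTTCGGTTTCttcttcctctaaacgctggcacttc
Tap2, chr20:4652303-4652362, minus strand: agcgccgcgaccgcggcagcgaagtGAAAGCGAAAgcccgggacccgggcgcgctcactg
Tapbp, chr20:4967878-4967937, minus strand: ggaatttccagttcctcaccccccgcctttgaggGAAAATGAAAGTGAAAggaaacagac
Psmb8, chr20:4657016-4657045, minus strand: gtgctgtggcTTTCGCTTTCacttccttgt
Psmb10, chr19:50743293-50743352, minus strand: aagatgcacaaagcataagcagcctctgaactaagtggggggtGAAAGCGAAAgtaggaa
Psme2, chr15:33052770-33052829, minus strand: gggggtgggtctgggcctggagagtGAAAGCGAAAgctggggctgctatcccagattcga
The motif began 150 bases before the start in B2m, 121 in Tap1, 53 in Psme2, 41 in Tap2, 20 in Tapbp, 17 in Psmb10 and 4 in Psmb8. Tapbp and Psmb10 had 2 motifs each, and the distance given is that of the motif nearer the start. The 2 motifs of Tapbp overlap, and of those of Psmb10 only the nearer is shown. The letters were not found in the windows of Psmb9 and Psme1, and Nlrc5 was not in the promoter table. Psmb5, Psmb6 and Psmb7, the standard subunits that Psmb8, Psmb9 and Psmb10 replace, had 0 matches among 3 promoters. Of other lists, 4 of 6 promoters of antiviral interferon response genes, 2 of 10 of the 20S proteasome core, 1 of 14 of the 19S regulator and 0 of 7 of the loading and trimming genes of the endoplasmic reticulum held it. Another interferon motif, the gamma-activated site TTCNNNGAA, was found in 1 of 9 members (Psmb8) against 8.68% of all promoters, and CCAAT in 3 of 9 against 37.7%. A match is a description of the letters and shows no binding, and the shares do not bear on SAH. Members, lists and motifs were all chosen with earlier results of these data known. Tap2, Psmb8, Tap1 and Psmb9 stand next to each other on chromosome 20 with no other protein-coding gene between them, and Psme1 and Psme2 lie on chromosome 15 with 1 gene, Emc9, between them.

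At SAH 1d, 9 of the 10 members rose (edgeR quasi-likelihood test, Benjamini-Hochberg adjusted p under 0.05), where 14.9% of all tested genes rose by that rule, and 0 fell, where 10.5% did. Of these, 7 rose at least 2-fold, against 5.54% of all genes, and in 8 of the 10 every SAH 1d library lay above every sham library, against 7.89% of all genes. The median log2 fold change of the members was 1.43, beside 0.01 over all tested genes. Nlrc5 was the member that missed the threshold. All 10 had an unadjusted p under 0.05, as did 38.7% of all genes in either direction. At SAH 7d, 0 of 10 members were called against sham by edgeR, as were 0% of all genes. All 10 members had a positive log2 fold change at SAH 7d, with a median of 1.37 beside -0.01 over all genes, and all 10 had an unadjusted p under 0.05, as did 15.3% of all genes in either direction. DESeq2 called 4 of the 10 higher at SAH 7d (B2m, Psmb8, Psmb9 and Psme1), against 2.2% of all genes. At SAH 7d 0 of 10 members had all 6 libraries above sham, against 0.797% of all genes. Both comparisons use the same 6 sham libraries.

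**Figure D1:**
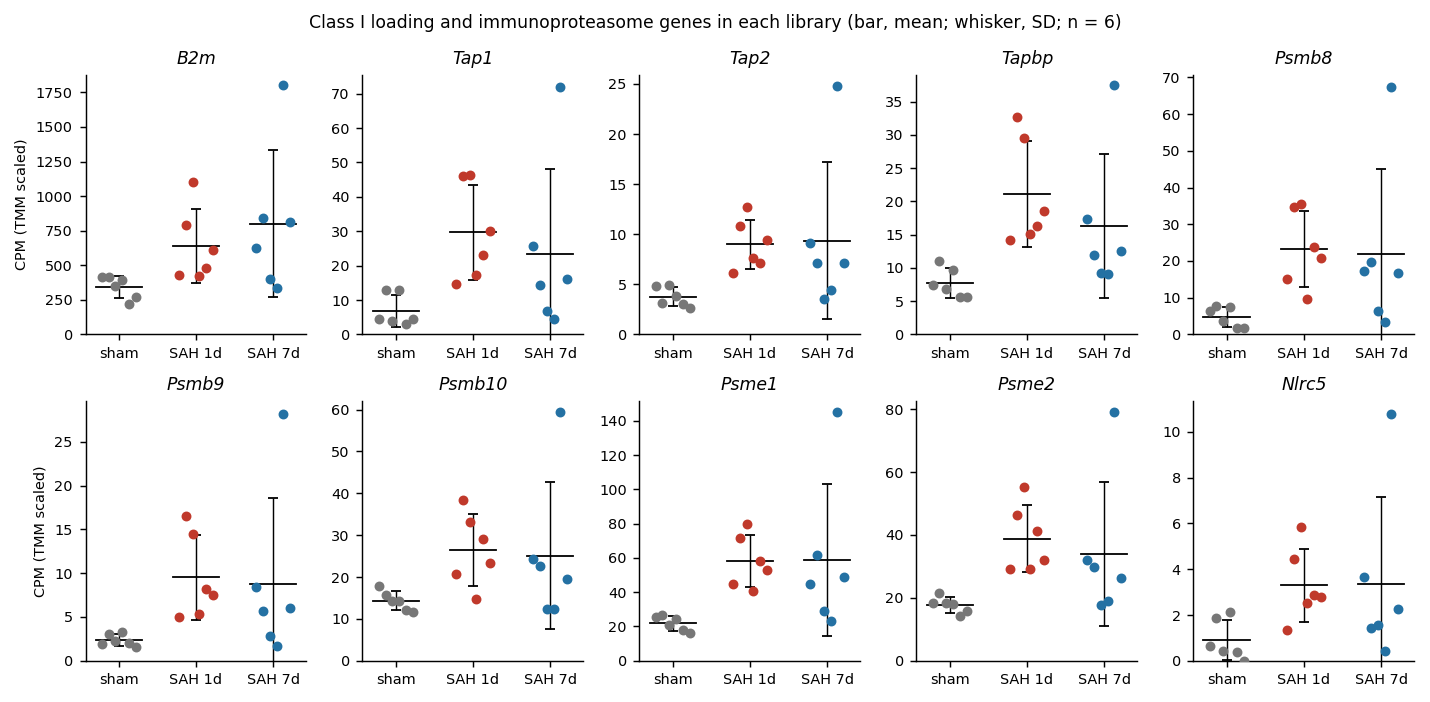
Level of each of the 10 genes in CPM, scaled by the TMM factors, in each of the 18 libraries (points), by group, with the mean as a bar and the SD as a whisker (n = 6). In 8 of the 10 genes the 6 SAH 1d points lie above all sham points, and the highest SAH 7d point in every panel is SAH 7d-5.

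Levels can be set side by side between genes only per length, as FPKM (fragments scaled by gene length and library size). In sham cortex B2m, the invariant light chain, stood far above the rest at a median of 187 FPKM (lowest 117, highest 217). Psme1 followed at 20.8 FPKM, then Psmb10 at 13.3, Psme2 at 12.3, Psmb8 at 4.11, Tapbp at 3.70, Psmb9 at 2.23, Tap1 at 1.33, Tap2 at 1.20 and Nlrc5 at 0.0794. In that order the ranges over the sham libraries did not overlap between B2m and Psme1, between Psme2 and Psmb8, and between Tap2 and Nlrc5, and all other neighbours overlapped. At SAH 1d the order was the same at both ends, with B2m at a median of 300.1 FPKM and Nlrc5 at 0.488, while Tap1 (9.33 FPKM) stood above Psmb9 (8.59 FPKM) and Psme2 (27.4 FPKM) above Psmb10 (26.3 FPKM), in both pairs with overlapping ranges.

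B2m (ENSRNOG00000017123) pairs with every classical class I heavy chain. Its level was 222, 372 and 415 CPM in sham (lowest, median and highest library), 419.7, 545 and 1102 CPM at SAH 1d, and 337, 717 and 1800 CPM at SAH 7d. The SAH 1d libraries all lay above sham, the lowest of them narrowly, while SAH 7d-3 and SAH 7d-4 fell within the sham range. B2m rose by 0.90 ± 0.24 (log2 fold change ± SE) at SAH 1d (edgeR adjusted p = 0.0181), a 1.86-fold difference, and the log2 fold change at SAH 7d was 1.22 ± 0.36 (adjusted p = 0.217). In the fit of all 18 libraries together the SAH 1d call of B2m was lost (adjusted p = 0.0889).

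Tap1 (ENSRNOG00000000457) and Tap2 (ENSRNOG00000046031) encode the paired chains of the peptide transporter in the membrane of the endoplasmic reticulum. Tap1 was at 3.01, 4.40 and 12.8 CPM in sham, 14.8, 26.7 and 46.3 CPM at SAH 1d, and 4.52, 15.3 and 71.9 CPM at SAH 7d. The high sham values were those of sham-2 and sham-4, and still no SAH 1d library reached down to them. Tap1 rose 4.31-fold at SAH 1d (log2 2.11 ± 0.43, edgeR adjusted p = 0.00419). Tap2 was at 2.68, 3.51 and 4.93 CPM in sham, 6.09, 8.57 and 12.7 CPM at SAH 1d, and 3.58, 7.16 and 24.8 CPM at SAH 7d. It rose 2.40-fold at SAH 1d (log2 1.26 ± 0.21, adjusted p = 0.00143), with no overlap with sham. At SAH 7d, Tap1 and Tap2 were above every sham library in 4 of 6 libraries each, and the log2 fold changes were 1.76 ± 0.65 (edgeR adjusted p = 0.264) and 1.33 ± 0.42 (adjusted p = 0.225).

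Tapbp (ENSRNOG00000029500) encodes tapasin, which bridges the transporter and the class I molecule being loaded. Its level was 5.62, 7.15 and 11.1 CPM in sham, 14.2, 17.5 and 32.7 CPM at SAH 1d, and 9.10, 12.3 and 37.5 CPM at SAH 7d. All SAH 1d libraries lay above sham, with SAH 1d-2 and SAH 1d-3 well above the other 4. Tapbp rose 2.73-fold at SAH 1d (log2 1.45 ± 0.25, edgeR adjusted p = 0.00162).

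The immunoproteasome is made when Psmb8, Psmb9 and Psmb10, which encode the catalytic subunits LMP7, LMP2 and MECL-1, take the places of Psmb5, Psmb6 and Psmb7. Psmb8 (ENSRNOG00000000456) was at 1.72, 4.96 and 7.64 CPM in sham, 9.56, 22.3 and 35.6 CPM at SAH 1d, and 3.35, 16.9 and 67.3 CPM at SAH 7d. Every SAH 1d library was above sham, and among the SAH 7d libraries SAH 7d-3 and SAH 7d-4 were within it. Psmb8 had the largest fold change of the 10 members at SAH 1d, 4.88-fold (log2 2.29 ± 0.43, edgeR adjusted p = 0.00262), and the largest at SAH 7d (log2 2.19 ± 0.66, adjusted p = 0.219).

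Psmb9 (ENSRNOG00000000459) was at 1.62, 2.18 and 3.31 CPM in sham, 5.01, 7.86 and 16.5 CPM at SAH 1d, and 1.68, 5.86 and 28.2 CPM at SAH 7d. It did not overlap with sham at SAH 1d, where it rose 4.03-fold (log2 2.01 ± 0.32, edgeR adjusted p = 0.00104). Psmb10 (ENSRNOG00000019494) was at 11.6, 14.3 and 17.8 CPM in sham, 14.8, 26.2 and 38.4 CPM at SAH 1d, and 12.3, 21.1 and 59.5 CPM at SAH 7d. It overlapped with sham through SAH 1d-4 and had the smallest fold change of the members, 1.85-fold (log2 0.89 ± 0.20, adjusted p = 0.00735), a call lost in the fit of all 18 libraries (adjusted p = 0.0735). At SAH 7d the log2 fold changes were 1.90 ± 0.57 for Psmb9 (adjusted p = 0.219) and 0.81 ± 0.34 for Psmb10 (adjusted p = 0.297).

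Each inducible subunit was next set over the standard subunit it replaces, as a ratio of FPKM within the library, so that library depth drops out. Psmb8 stood at 0.0135, 0.0452 and 0.0604 of Psmb5 in sham (lowest, median and highest), at 0.109, 0.187 and 0.371 at SAH 1d, and at 0.0282, 0.140 and 0.654 at SAH 7d. No SAH 1d ratio came down to the sham range, whereas 2 of the 6 SAH 7d ratios did. The mean log2 ratio was 2.52 higher at SAH 1d than in sham, or 5.73-fold (exact two-sided permutation test, p = 0.00216, the smallest that 924 splits can give, adjusted over 9 tests p = 0.00974).

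Psmb9 over Psmb6 moved likewise, from a median of 0.0303 in sham (0.0188 to 0.0439) to 0.107 at SAH 1d (0.0679 to 0.211) and 0.0735 at SAH 7d (0.0273 to 0.382). The SAH 1d and sham ratios did not overlap, and the mean log2 ratio differed by 1.92, or 3.79-fold (exact permutation adjusted p = 0.00974). Psmb10 over Psmb7 had a median of 0.0855 in sham (0.0635 to 0.113), 0.144 at SAH 1d (0.1004 to 0.218) and 0.126 at SAH 7d (0.0733 to 0.454). Here 5 of 6 SAH 1d libraries were above all sham libraries, and the log2 difference of 0.82 was the smallest of the 3 (1.77-fold, exact permutation adjusted p = 0.0130).

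At SAH 7d against sham the log2 differences of the ratios were 1.90 for Psmb8 over Psmb5 (exact permutation adjusted p = 0.0545), 1.35 for Psmb9 over Psmb6 (adjusted p = 0.0487) and 0.71 for Psmb10 over Psmb7 (adjusted p = 0.133). The call of Psmb9 over Psmb6 was lost when any 1 of 9 of the 12 libraries was left out, and without SAH 7d-5 its difference was 0.89. Between the times the differences were -0.62, -0.57 and -0.11, with exact permutation adjusted p of 0.443, 0.443 and 0.816. The standard subunits themselves did not pass the test. At SAH 1d the log2 fold change was -0.09 ± 0.11 for Psmb5, 0.02 ± 0.13 for Psmb6 and 0.00 ± 0.08 for Psmb7, with edgeR adjusted p of 0.584, 0.936 and 0.988. In SAH 7d-5, the library with the highest monocyte and macrophage markers, the 3 ratios were 0.654, 0.382 and 0.454, each the highest of all 18 libraries, and what share of them those cells brought was not tested.

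**Figure D2:**
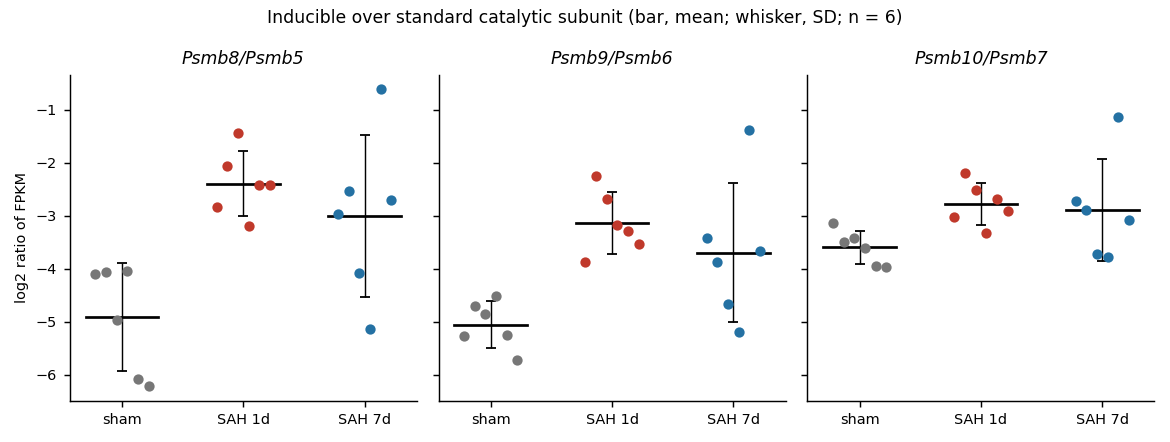
Log2 ratio of FPKM of each inducible catalytic subunit over the standard subunit it replaces, in each library (points), by group, with mean (bar) and SD (whisker), n = 6. For Psmb8/Psmb5 and Psmb9/Psmb6 all SAH 1d points are above all sham points, and the highest point of each panel is SAH 7d-5.

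Psme1 (ENSRNOG00000019041) and Psme2 (ENSRNOG00000019246) encode the alpha and beta subunits of PA28, the interferon-inducible cap that opens the 20S proteasome. Psme1 was at 16.2, 22.5 and 26.9 CPM in sham, 40.7, 55.5 and 79.6 CPM at SAH 1d, and 23.0, 46.9 and 145 CPM at SAH 7d. The lowest SAH 1d library was well clear of the highest sham library, and at SAH 7d only SAH 7d-4 fell back into the sham range. Psme1 rose 2.64-fold at SAH 1d (log2 1.40 ± 0.18), with the smallest adjusted p of the members (edgeR, 0.000257), and its log2 fold change at SAH 7d was 1.42 ± 0.38 (adjusted p = 0.217). Psme2 was at 14.1, 18.2 and 21.6 CPM in sham, 29.2, 36.7 and 55.2 CPM at SAH 1d, and 17.6, 28.0 and 79.3 CPM at SAH 7d. It did not overlap with sham at SAH 1d and rose 2.19-fold (log2 1.13 ± 0.17, edgeR adjusted p = 0.000673), and at SAH 7d it stood at log2 0.94 ± 0.32 (adjusted p = 0.249). Of the caps outside the interferon-inducible pair, Psme3 (PA28 gamma) was at log2 0.12 ± 0.10 at SAH 1d (adjusted p = 0.42), and Psme4 (PA200) rose by log2 0.52 ± 0.14 (adjusted p = 0.0202).

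Nlrc5 (ENSRNOG00000048222) encodes the class I transactivator, a factor that binds the promoters of class I genes with the RFX complex. It was the lowest member, at 0, 0.525 and 2.13 CPM in sham, 1.33, 2.82 and 5.86 CPM at SAH 1d, and 0.445, 1.92 and 10.8 CPM at SAH 7d. The 0 is sham-6, where a count of 0 allows up to 0.0947 CPM (3 counts, counting error only), and the high sham libraries were sham-4 and sham-2, so that SAH 1d-1 lay within the sham range. The log2 fold change was 1.86 ± 0.66 at SAH 1d (edgeR adjusted p = 0.0544) and 1.89 ± 0.87 at SAH 7d (adjusted p = 0.325). Under DESeq2 Nlrc5 passed the test at SAH 1d (adjusted p = 0.0188), and over 21 alternatives its adjusted p ran from 0.0129 to 0.106.

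**Figure D3:**
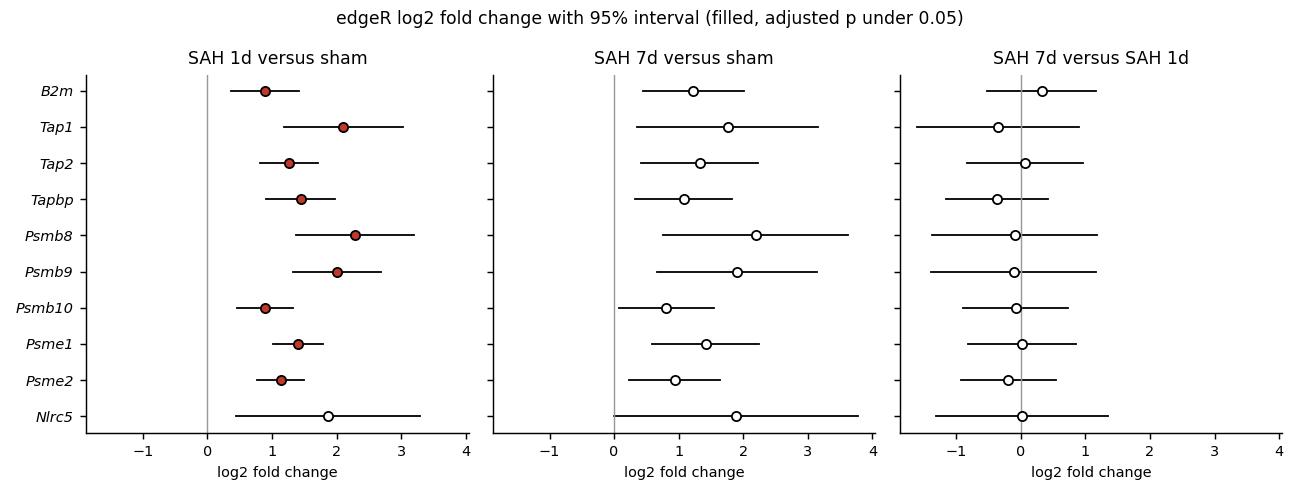
Log2 fold change of the 10 genes in each comparison (points) with the 95% interval (lines), from the edgeR fits of 12 libraries each. Filled points passed adjusted p under 0.05, which 9 genes did for SAH 1d versus sham and 0 in the other comparisons.

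Against SAH 1d, the SAH 7d group showed no member past the threshold, where 0.271% of all genes were called higher and 1.07% lower by edgeR. The count of members with an unadjusted p under 0.05 was also 0, against 14.8% of all genes, and DESeq2 called 0 of 10, against 5.49%. The log2 fold changes ran from -0.37 (Tapbp) to 0.33 (B2m), with 4 of 10 above 0. The 95% intervals were wide, from -1.61 to 0.91 for Tap1 and from -1.15 to 0.41 for Tapbp, and a difference of 2-fold in either direction lay within the intervals of Psmb8 (-1.37 to 1.18), Psmb9 and Nlrc5. Without SAH 7d-5 all 10 lay below 0, from -1.13 (Tap1) to -0.086 (B2m), with edgeR adjusted p from 0.0728 (Tapbp) to 0.885 (B2m) and 0 called. These values do not show that the levels were equal at both times.

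At SAH 7d the same libraries were high or low in most members. SAH 7d-5 was the highest library of its group in 10 of 10 members, with a median of 6.62 times the sham mean over the members. SAH 7d-1, SAH 7d-2 and SAH 7d-6 stood at 2.35, 2.0 and 2.29 times the sham mean, each with 9 or 10 members above every sham library. SAH 7d-3 and SAH 7d-4 stood at 1.17 and 0.92 times, with 1 and 0 members above every sham library.

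In the SAH 1d group the same median ran from 1.74 (SAH 1d-1) to 3.72 (SAH 1d-3), and every library had at least 9 members above all sham libraries. In sham it ran from 0.72 (sham-6) to 1.25 (sham-2). The antiviral interferon response genes were also lowest in SAH 7d-3 and SAH 7d-4, where their mean log2 CPM was 1.62 and 1.60 against 3.56 to 5.90 in the other 4 SAH 7d libraries. Elsewhere the order of libraries differed. Those genes were higher in sham-2 and sham-4 (4.88 and 4.93) than in SAH 1d-1 and SAH 1d-4 (4.07 and 4.03). The members stood at 1.25 and 1.20 against 1.74 and 1.98 times the sham mean. SAH 7d-1 (5.90) was level with SAH 7d-5 (5.86), with members at 2.35 against 6.62 times. Without SAH 7d-5, the log2 fold changes of the members at SAH 7d against sham were 0.35 (Psmb10) to 1.41 (Psmb8), all above 0, with edgeR adjusted p from 0.127 to 0.587.

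**Figure D4:**
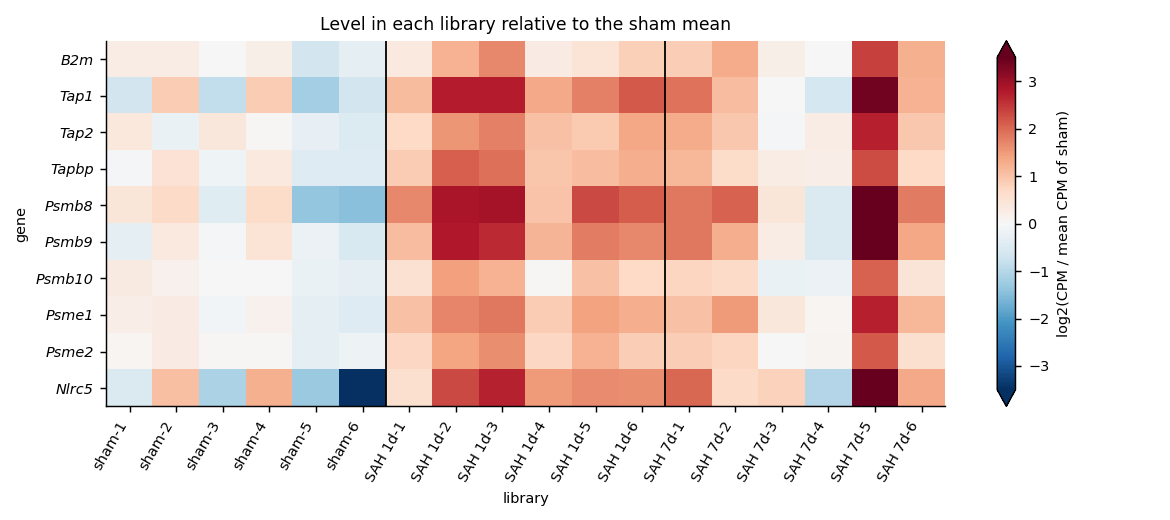
Log2 of the level of each gene (rows) in each library (columns) over the mean level in sham, with vertical lines between sham, SAH 1d and SAH 7d; Nlrc5 in sham-6 had a count of 0 and is drawn at the end of the scale. SAH 7d-5 is the darkest column (median 6.62 times the sham mean), and SAH 7d-3 and SAH 7d-4 are pale (1.17 and 0.92 times).

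Levels of the members were correlated over libraries. Over all 18 libraries the Pearson correlation of log2 CPM between pairs of members had a median of 0.92 over 45 pairs, from 0.77 (Psmb10 with Nlrc5) to 0.97 (Psmb8 with Psme1). Within a group of 6 libraries the median was 0.73 in sham, 0.90 at SAH 1d and 0.96 at SAH 7d. The points share their libraries, group differences and, at SAH 7d, the high library SAH 7d-5, so these values describe the libraries.

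Genes outside the set whose log2 CPM was most like the mean of the members over the 18 libraries were Naca (Pearson r = 0.97), Parp9 (0.97), Rpl4 (0.97), Mov10 (0.97) and Igtp (0.97). Parp9, Mov10 and Igtp are known as interferon-inducible, and Naca and Rpl4 belong to protein synthesis. Igtp, an immunity-related GTPase, rose by log2 1.78 at SAH 1d (edgeR adjusted p = 0.00742), and Parp9 by 1.56 (adjusted p = 0.00792). The changes of Naca and Rpl4 were small, at 0.38 and 0.53 (edgeR adjusted p = 0.00243 and 0.00215). These genes were picked by their likeness to the members over libraries that include SAH 1d and sham. Their rise at SAH 1d thus follows in part from that choice and is no separate support.

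Class I heavy chains were taken as the 21 rat genes whose symbols begin with RT1-A, RT1-CE, RT1-M, RT1-N, RT1-S or RT1-T. The list was not limited to classical genes, and 18 of the 21 were tested. At SAH 1d 7 rose and 0 fell, where 14.9% of all tested genes rose and 10.5% fell, with a median log2 fold change of 0.86. RT1-CE1 rose by log2 1.63 ± 0.35 (edgeR adjusted p = 0.00578), RT1-CE7 by 1.76 ± 0.47 (adjusted p = 0.0155), RT1-CE3 by 1.32 ± 0.36 (adjusted p = 0.0186) and the classical gene RT1-A1 by 1.77 ± 0.49 (adjusted p = 0.0201). At SAH 7d 0 of the 18 were called, as were 0% of all genes, with a median of 0.85. RT1-A1 was at 2.73, 5.27 and 17.5 CPM in sham, 12.1, 22.3 and 54.0 CPM at SAH 1d, and 11.4, 22.5 and 98.0 CPM at SAH 7d. RT1-A2 was at 3.87, 9.80 and 29.1 CPM in sham, 7.94, 33.4 and 110.5 CPM at SAH 1d, and 10.85, 59.4 and 196 CPM at SAH 7d. Both RT1-A1 and RT1-A2 overlapped with sham at SAH 1d. Many of these RT1 genes are near-identical copies that vary between rats. How the counting split their reads is not given in the sources used here, so the values of single RT1 genes are uncertain. Of 4 class I-like genes whose products also pair with B2m, 0 were called at SAH 1d, with Cd1d1 at log2 0.46 (adjusted p = 0.18), Mr1 at 0.44 (adjusted p = 0.22), Fcgrt at 0.20 (adjusted p = 0.277) and Hfe at 0.12 (adjusted p = 0.818).

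Among 10 further genes of peptide import, trimming and folding in the endoplasmic reticulum, 3 rose at SAH 1d and 0 fell. By the same rule 14.9% of all tested genes rose and 10.5% fell, and the list median was 0.35. Erap1, the aminopeptidase that trims peptides to class I length, was at 17.4, 26.5 and 32.0 CPM in sham and 37.7, 43.5 and 78.6 CPM at SAH 1d, without overlap, and rose by log2 0.96 ± 0.20 (edgeR adjusted p = 0.00505). Tapbpl, the peptide editor TAPBPR, rose by 0.74 ± 0.16 (adjusted p = 0.00588) and Sec61a1, a translocon subunit, by 0.56 ± 0.14 (adjusted p = 0.0116). The general chaperones of the loading complex did not pass the test: Calr (calreticulin) was at 0.34 (adjusted p = 0.0695), Pdia3 (ERp57) at 0.36 (adjusted p = 0.0711) and Canx (calnexin) at 0.19 (adjusted p = 0.22).

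Other proteasome genes had small changes at SAH 1d, where 14.9% of all tested genes rose and 10.5% fell. Of 10 genes of the 20S core other than the catalytic subunits, 3 rose at SAH 1d (Psmb2, log2 0.38; Psma1, 0.27; Psmb4, 0.35), with a median of 0.17. Of 17 genes of the 19S regulator, which recognises ubiquitin-tagged proteins, 2 rose (Psmd14, 0.31, and Psmc2, 0.27), with a median of 0.17. Of 8 genes of other activators and assembly factors, Psme4 rose and Psmg3 fell by 0.44 on the log2 scale, with a median of 0.16. No gene of these lists reached a 2-fold change, and 0 were called at SAH 7d against sham, as were 0% of all genes.

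**Figure D5:**
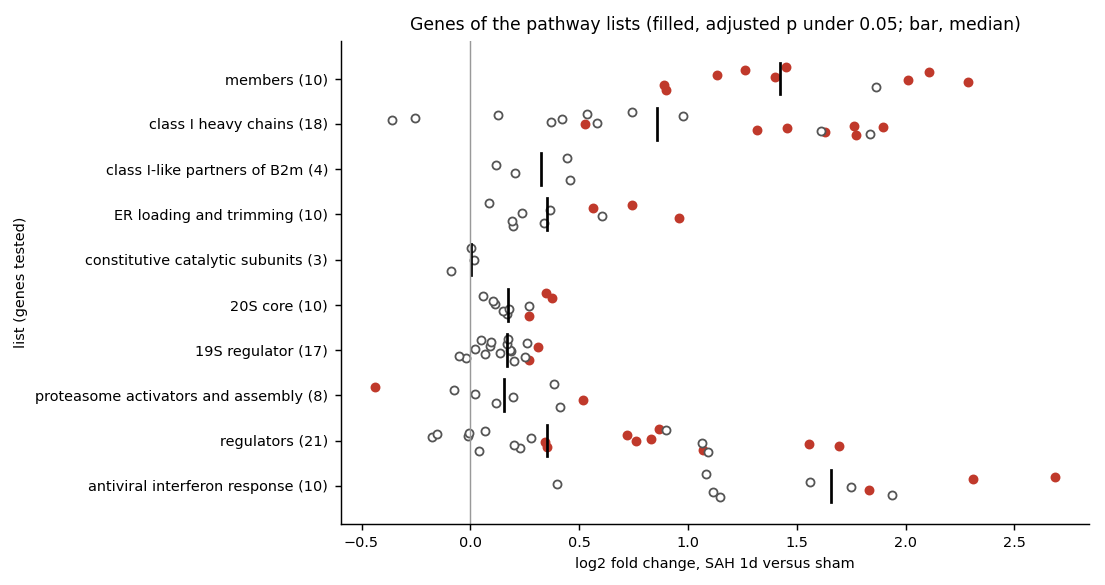
Log2 fold change at SAH 1d against sham (edgeR) of each tested gene in the lists of the pathway (points, 1 line per list, number tested in brackets), with the list median as a bar. The median is 1.43 for the members, 0.86 for class I heavy chains and 0.00 for the standard catalytic subunits.

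Regulators of the pathway were taken as 24 genes of interferon signaling, the RFX and NF-Y complexes and NF-kB, of which 21 were tested. At SAH 1d 9 rose and 0 fell, against 14.9% and 10.5% of all tested genes. Irf1, an interferon-induced activator of class I genes, was at 6.09, 7.73 and 10.7 CPM in sham, 15.7, 22.7 and 49.0 CPM at SAH 1d, and 6.30, 12.5 and 58.1 CPM at SAH 7d. It rose 3.24-fold at SAH 1d without overlap (log2 1.69 ± 0.26, edgeR adjusted p = 0.000940). Irf8, a factor of microglia and macrophages, rose by log2 1.56 ± 0.18 (adjusted p = 0.000109), Ifnar2, a chain of the type I interferon receptor, by 1.07 ± 0.14 (adjusted p = 0.000312), and Stat2 by 0.86 ± 0.17 (adjusted p = 0.00408).

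Nfkb1 and Rela, subunits of NF-kB, rose by log2 0.83 and 0.72 (edgeR adjusted p = 0.00537 and 0.00698). Jak1, Jak2 and Ifngr2, of interferon signaling, rose by 0.34, 0.76 and 0.35. Rfx5, a partner of the class I transactivator, was at -0.15 (adjusted p = 0.11), and Ciita, its class II counterpart, at 1.09 ± 0.62 (adjusted p = 0.212). Ifng and Ifnb1, which encode interferons, were below the filter on low counts. Of the 10 antiviral interferon response genes, 3 rose at SAH 1d, against 14.9% of all tested genes. Rsad2 rose by 2.69 (edgeR adjusted p = 0.00665), Oasl by 2.31 (adjusted p = 0.0247) and Isg15 by 1.83 (adjusted p = 0.0344). The median was 1.66 over the list.

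Some lists of cell type markers differed from sham at SAH 1d and others did not, where 14.9% of all tested genes rose and 10.5% fell. At SAH 1d, 4 of 6 tested monocyte and macrophage markers rose, and their summed level was 98.4 to 634 CPM against 51.4 to 93.8 CPM in sham. Microglia markers summed to 339 to 400.5 CPM at SAH 1d against 284 to 500.0 CPM in sham, and 0 of 7 rose while 1 fell (P2ry12). The summed T and natural killer cell markers were 8.84 to 13.4 CPM against 8.37 to 13.7 CPM, and 1 of 4 tested markers (Cd8a) was higher. Cd8a was low in both groups, at 0.211 to 0.948 CPM against at most 0.2665 CPM in sham. Gzmb was at 0 in all sham libraries and at a median of 0.046 CPM at SAH 1d (highest 1.065 CPM, SAH 1d-3).

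Neutrophil markers summed to 6.69 to 71.2 CPM at SAH 1d against 1.92 to 6.61 CPM in sham, and 2 of 3 tested rose. Of 6 astrocyte markers Gfap, which marks reactive astrocytes, rose 8.0-fold and Aldh1l1 fell by 0.85 on the log2 scale (edgeR adjusted p = 0.00835), and the list median was -0.14. Of the vessel and blood lists, 1 of 5 endothelial markers rose (Cdh5), and red cell markers were 51.4 to 189 CPM against 13.2 to 108 CPM. Choroid plexus markers reached 1070 CPM in SAH 1d-6 and 740 CPM in the next SAH 1d library, with a group median of 40.5 CPM. In sham they reached at most 67.5 CPM, and 3 of 5 rose at SAH 1d. The part of these cells in the levels of the members was not tested. With SAH 7d-5 and SAH 1d-3 removed, the same number of members, 9 of 10, passed at SAH 1d, with log2 fold changes of 0.68 (B2m) to 2.13 (Psmb8). Of these libraries only SAH 1d-3 enters the comparison of SAH 1d with sham. Every SAH 1d library, at 98.4 CPM or more, also summed above sham (at most 93.8 CPM) for monocyte and macrophage markers. That fit therefore does not test the part of these cells either.

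At SAH 7d the summed monocyte and macrophage markers were 94.0 to 8776 CPM with a median of 128 CPM, and microglia markers 349 to 2599 CPM with a median of 666 CPM. SAH 7d-5 was highest for both, as it was for every member, and held Lyz2 at 8006 CPM and Cd8a at 243 CPM, against at most 211 and 1.52 CPM in the rest of the group. SAH 7d-4, the lowest library for 7 of the 10 members, was also the lowest of its group in both sums. Whether the members' levels in these libraries came from the marked cells was not tested.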

How the data were processed

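RNA from 18 libraries of rat cortex was analysed from a table of read counts and a table of FPKM, both deposited by the authors with 1 column per library. The authors removed adapters and low-quality reads and aligned to Rnor_6.0, as the study states. The submitters' processing notes name fastp, HISAT2, DESeq2 1.16.1 and the mouse build mm9, with no role given. No source used here gives the counting program or its strand setting. The table holds 8685 loci named NewGene beside annotated genes, 3100 of them among the genes tested.

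From the deposited counts, edgeR 4.0.16 (R 4.3.3) filtered low counts and computed trimmed mean (TMM) factors over all 18 libraries, fitted each comparison on its 12 libraries with the quasi-likelihood test, and adjusted p by Benjamini-Hochberg over 18444 genes. A gene was called at adjusted p under 0.05. SE is the log2 fold change over the root of F. Ratios used the deposited FPKM values and exact permutation tests (scipy 1.17.1), and their depth is that of the counts. Alternatives used DESeq2 1.42.0 and limma 3.58.1, other filters and scalings, and each library left out. All 10 members were named, with the standard subunits, up to 3 genes of each list with the smallest adjusted p in a comparison, Irf1, Ciita, Rfx5, Psme3, Erap1, Tapbpl, Calr, Canx and Pdia3, and the 5 genes most like the members. A further gene of that rule is not reported here. Further genes of the lists were named after their values were seen. The members, lists, motifs and the libraries left out together were chosen with earlier results of these data known. Promoters are RefSeq's for GRCr8, a later build than that of the files, so no read position was compared with them.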

Additional observations from a re-analysis of the deposited data

Results flagged for a closer look

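In the SAH 7d group, 1 library stood far above the other 5 for every member and for each subunit ratio: the gap from SAH 7d-5 to the next library, over the range of the group, was 0.655 to 0.815 on the linear scale, above Dixon's critical value for 6 values, which chance passes in about 5 percent of groups. Its levels were 1800 CPM for B2m, 71.9 for Tap1, 24.8 for Tap2, 37.5 for Tapbp, 67.3 for Psmb8, 28.2 for Psmb9, 59.5 for Psmb10, 145 for Psme1, 79.3 for Psme2 and 10.8 for Nlrc5, and its FPKM ratios were 0.654 for Psmb8 over Psmb5, 0.382 for Psmb9 over Psmb6 and 0.454 for Psmb10 over Psmb7. Of 39 sets of 6 values examined (the members and the subunit ratios, by group), these 13 passed the limit, and since all 13 come from 1 library they are not independent of each other. On the log2 scale the same 13 gaps were 0.34 to 0.604 of the range, and 0 passed. In the same library the monocyte and macrophage markers summed to 8776 CPM and the neuron markers to 2159 CPM, the lowest of all 18 libraries.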

How the results depend on the processing

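Over 24 alternatives, 7 to 10 of the 10 members were called higher at SAH 1d, the 7 being the fit of all 18 libraries together. At SAH 7d against sham 0 were called in every alternative but DESeq2, with 4, and between the times 0 in all 23. All log2 fold changes of the members against sham stayed above 0 in all alternatives that gave a value. Nlrc5 at SAH 1d passed in 8 of 21 alternatives, among them those that left out sham-2, sham-4, sham-6 or SAH 1d-1 alone (adjusted p 0.0343 to 0.0492), and the filters on mean FPKM or on counts in every library left it untested. The replicate numbers did not pair the libraries: deviations of same-numbered libraries correlated at -0.252 to 0.197, with 1 of 18 pairs over 0.1 and 2 closest to their own number. A fit with the replicate number as a block called 9, 0 and 0 members, and 3986, 0 and 27 of all genes.

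Between SAH 7d and SAH 1d, 39 of 227 values of members changed sign, none of them called. With the replicate block Tap2, Psme1 and Nlrc5 were at -0.22, -0.22 and -0.50, with voom quality weights at -0.41, -0.42 and -0.62, and with SAH 7d-5 and SAH 1d-3 removed at -0.39, -0.37 and -0.57. On log2(FPKM + 1) Tap2 and Psme1 were at -0.16 and -0.27 with a minimum mean FPKM of 0.5 and without it, and Nlrc5 at -0.073 without it, and on log2(FPKM + 0.1) Tap2 and Psme1 were at -0.26 and -0.28. With 1 library left out, the ranges were -0.086 to 0.55 for B2m, -1.13 to -0.13 for Tap1, -0.80 to -0.20 for Tapbp, -0.64 to -0.062 for Psme2, -0.51 to 0.23 for Tap2, -0.87 to 0.13 for Psmb8, -0.95 to 0.12 for Psmb9, -0.54 to 0.061 for Psmb10, -0.48 to 0.19 for Psme1 and -0.82 to 0.27 for Nlrc5, the lowest of each being without SAH 7d-5.

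The ratio of Psmb9 over Psmb6 at SAH 7d against sham lost its call in 9 of 12 fits with 1 library left out, with log2 differences of 0.89 (without SAH 7d-5) to 1.65, and at 0.89 with SAH 7d-5 and SAH 1d-3 removed. Psmb8 over Psmb5 ranged from 1.42 to 2.33 with 1 library left out and passed without SAH 7d-3 or without SAH 7d-4. Psmb10 over Psmb7 between the times ranged from -0.46 to 0.065. With fewer libraries these permutation tests have fewer splits, and no other cause of these changes was tested. Nlrc5, at 0 to 10.8 CPM, is the member that depth limits most.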
